A study of Mus musculus with 7 samples.

Results

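The telomere-proximal ends of the mouse autosomes were taken as the 500 bp bins of chromosomes 1 to 19 whose start lay within 2 Mb of the last bin of the chromosome in build mm9. Very deep bins, those averaging more than 100 raw reads across the libraries, were left out. That gave 75994 bins, 4000 at most per chromosome, of 5451548 in the whole count table. Of these, 72567 (95.5%) held at least 1 read in some library and are called covered bins. The rest of the same autosomes had 4868452 bins, of which 92.7% were covered. No measured value other than the limit on very high counts entered the choice.

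The study profiled 5-hydroxymethylcytosine (5hmC) by antibody enrichment of genomic DNA followed by sequencing. All 7 libraries came from hippocampus of unstressed C57BL/6 mice. The groups were 3 wild-type (WT) libraries and 4 libraries from a Tet2 conditional knockout (Tet2 CKO). Which Cre line removed Tet2, in which cells, and the age of the mice are not given in the sources used here, and the loss of Tet2 itself was not checked in these bin counts. Whether replicates are separate animals is not in the labels. The p-values therefore speak of the spread between libraries, which may be technical. In whole tissue, a change in the mix of cells and a change in 5hmC per cell cannot be told apart.

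5hmC is made when TET dioxygenases, Tet2 among them, oxidise 5-methylcytosine. It is abundant in neurons, where it is known to lie over the bodies of active genes and over enhancers. Mouse chromosomes have their centromere at one tip: the coordinates start in an unsequenced centromeric stretch and finish at the telomere of the long arm. Subtelomeric DNA joins unique sequence to repeats, among them the TTAGGG array of the telomere, which an assembly does not hold in full. Reads near the tip can therefore be hard to place.

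Total reads per library ran from 26134505 to 49414761, and the ends held 184930 to 444020 reads outside the high-count bins. WT replicate 1 was the deepest in the ends, with 6.12 reads per covered bin, against 2.55 to 3.11 in the other libraries. In the ends, 69.6%, 52.6% and 59.9% of bins held a read in the WT libraries, and 53.7%, 37.9%, 40.7% and 56.6% in Tet2 CKO replicates 1 to 4. Tet2 CKO replicates 2 and 3 stood apart from the other libraries. They had 69.8% and 74.1% of all their reads in the 375 high-count bins of the series, against 29.8% to 54.3% elsewhere. The comparisons of the ends and the folds of named regions are therefore given with and without this pair. Among end bins with 1 to 20 reads, 72.6% to 83.8% had an even count, so reads were largely counted in pairs, and whether these are mates is not stated.

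The first question was whether the ends as a whole carried more or less 5hmC signal than the rest of their own chromosome. For each library, the mean over 19 autosomes of log2(reads per covered bin in the end / reads per covered bin in the rest) was computed. It was -0.28, -0.08 and -0.05 in WT replicates 1 to 3. In Tet2 CKO replicates 1 to 4 it was -0.08, 0.01, -0.01 and -0.07. All values except that of Tet2 CKO replicate 2 lay below 0, and WT replicate 1 lay lowest. Their mean was -0.08 ± 0.10 (SD, n = 7), with p = 0.0312 in a two-sided exact permutation of signs, where 0.0156 was the smallest value possible. The call did not hold in most alternatives: 3 kept it, 11 lost it with the same sign and 1 turned sign. It was kept without Tet2 CKO replicate 2, with high-count bins kept, and with bins averaging above 20 reads left out. Without any of 6 libraries in turn (all but Tet2 CKO replicate 2) the exact permutation p was 0.0625, and without Tet2 CKO replicates 2 and 3 the mean was -0.11 with the same p of 0.0625, the smallest that 5 libraries allow. With reads summed over all autosomes first the value was -0.0047 (exact permutation p = 0.781), for the last 5 Mb it was 0.05, and with the high-count bins kept it was -0.47 (p = 0.0156).

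Genotype was compared on the same value. The WT mean was -0.14 ± 0.12 (SD, n = 3) and the Tet2 CKO mean was -0.04 ± 0.05 (SD, n = 4). Their difference of 0.10 did not exceed the spread between libraries (p = 0.171, two-sided exact permutation of the group labels, smallest possible 0.0286). Without Tet2 CKO replicates 2 and 3 the difference was 0.06 (exact permutation p = 0.8, smallest possible 0.1, so this test could not pass). Within the same-numbered pairs it was 0.20, 0.10 and 0.04, all higher in Tet2 CKO, with an exact permutation p of 0.25, the smallest that 3 pairs allow.

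Averaging hid large and opposite values in individual chromosomes. By the WT mean of log2(end / rest), 7 ends were richer in 5hmC reads than the rest of their chromosome and 12 were poorer. The SD of that mean over the 19 ends was 0.41. In descending order the WT means were 0.78 for chromosome 4, 0.42 for 11, 0.34 for 2, 0.33 for 7, 0.21 for 15, 0.09 for 5 and 0.06 for 16. Below 0 came -0.16 for chromosome 9, -0.22 for 14, -0.25 for 6, -0.31 for 3, -0.33 for 8, -0.36 for 18, -0.42 for 1, -0.42 for 10, -0.49 for 13, -0.50 for 19, -0.53 for 12 and -0.88 for 17. Most neighbours in this order differ by less than the WT SD of a single end, whose median was 0.24. The 7 richer ends had 97.9% to 99.5% of their bins covered, and the 12 poorer ends 91.1% to 96.8%.

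Chromosome 4 had the richest end (positions 153630501 to 155630120 of mm9). Its log2(end / rest) was 1.21, 0.60 and 0.53 in the WT libraries, and 0.66, -0.58, -0.54 and 0.55 in Tet2 CKO replicates 1 to 4. In WT replicate 1 that is 15.8 reads per covered bin in the end against 6.82 in the rest. This end was 7th or 8th of the 77 segments of 2 Mb on the chromosome in 5 libraries, while Tet2 CKO replicates 2 and 3 placed it 67th. The WT mean log2 ratio corresponds to 1.72-fold.

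Next came chromosome 11, with values of 0.69, 0.30 and 0.27 in WT and 0.39, -0.23, -0.17 and 0.31 in Tet2 CKO. Chromosome 2 gave 0.56, 0.20 and 0.26 in WT and 0.23, -0.38, -0.37 and 0.22 in Tet2 CKO. In both, the same 5 libraries were above 0 and the same 2 were below it. Chromosome 7, shown because of its values, reached -0.88 and -0.93 in Tet2 CKO replicates 2 and 3, against 0.16 to 0.62 in the other 5 libraries.

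At the other extreme, the end of chromosome 17 (93273001 to 95272651) read -1.54, -0.61 and -0.48 in WT and -0.57, 0.57, 0.58 and -0.45 in Tet2 CKO. The WT mean log2 ratio corresponds to 0.54-fold. It was 37th to 42nd of 47 segments in 5 libraries and 4th in Tet2 CKO replicates 2 and 3. Chromosome 12 read -0.92, -0.36 and -0.32 in WT and -0.36, 0.30, 0.32 and -0.32 in Tet2 CKO. Chromosome 19 behaved differently: its values were -0.70, -0.43 and -0.36 in WT and -0.43, -0.11, -0.25 and -0.36 in Tet2 CKO, below 0 in every library. The ends of chromosomes 14 and 18, also shown because of their values, held the highest rank of all segments of their chromosome, 1 of 61 and 1 of 44, in both Tet2 CKO replicates 2 and 3. In the remaining libraries they ranked 29th to 40th and 25th to 37th.

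**Figure D1:**
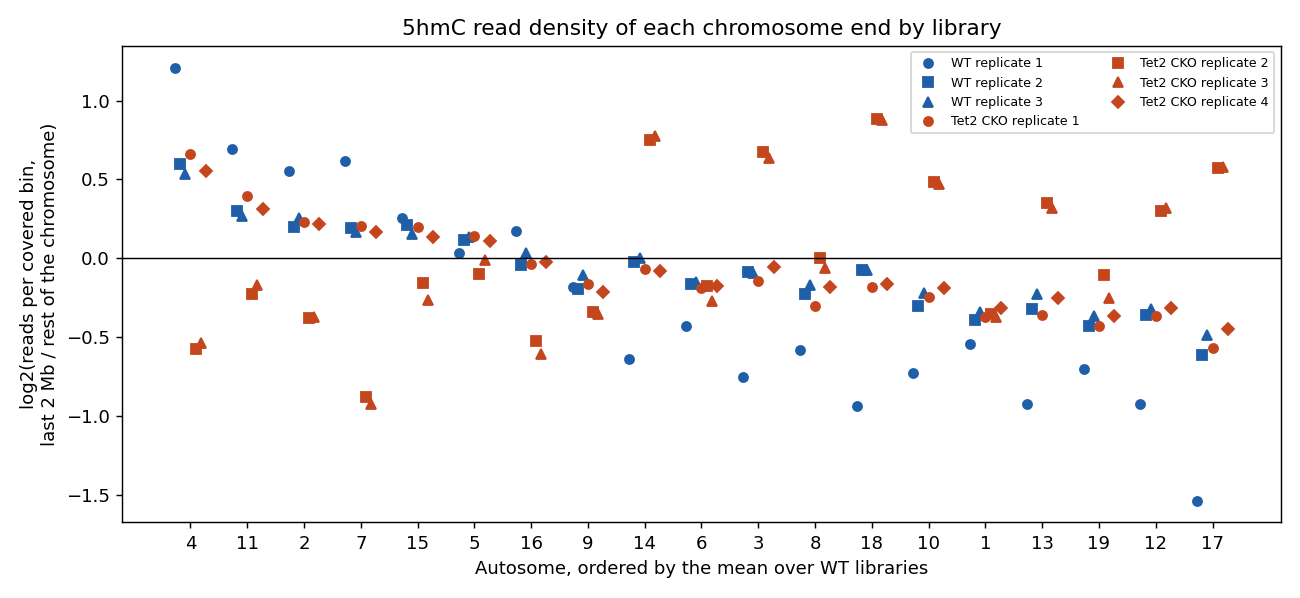
Each point is 1 library, and the y axis is log2 of reads per covered bin in the last 2 Mb over the rest of the same chromosome. Autosomes run along the x axis in the order of the WT mean, from 0.78 for chromosome 4 to -0.88 for chromosome 17, and Tet2 CKO replicates 2 and 3 lie on the other side of 0 from WT replicate 1 at 14 of 19 ends.

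No end was richer than the rest of its chromosome in all 7 libraries. The ends of chromosomes 1, 6, 9 and 19 were poorer in all 7. For these 4 the exact permutation of signs, a test chosen after the values were seen, gave p = 0.0156 each and 0.0742 after Benjamini-Hochberg adjustment over 19 ends, which does not pass 0.05. The chromosome 1 end varied little outside WT replicate 1: it read -0.54 there and between -0.39 and -0.32 in the other 6 libraries. Chromosome 6 read -0.43 in WT replicate 1 and -0.27 to -0.15 elsewhere, and chromosome 9 read -0.35 to -0.10 over all 7 libraries.

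The order of the ends was shared by 5 libraries and ran the other way, to differing degrees, in 2. Across the 19 ends, Pearson r was 0.984 to 0.992 among 4 libraries (Tet2 CKO replicates 1 and 4, WT replicates 2 and 3), and 0.906 to 0.935 between these and WT replicate 1. It was 0.993 between Tet2 CKO replicates 2 and 3, and -0.776 and -0.738 between them and WT replicate 1. With the other 4 libraries their r was -0.42 to -0.52. These describe 19 points that share the same genome, base composition and mapping, and carry no p-value. The spread over ends was widest in WT replicate 1, with an SD of 0.71, against 0.26 to 0.32 in those 4 libraries and 0.50 and 0.51 in Tet2 CKO replicates 2 and 3. The split between libraries was not limited to the ends. Over 226943 windows of 10 kb on all autosomes, Pearson r of log2 read levels was 0.83 between Tet2 CKO replicates 2 and 3. It was -0.04 to 0.37 between them and the other 5 libraries, and 0.66 to 0.70 among those 5.

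By chromosome, Tet2 CKO minus WT ran from -0.76 at chromosome 4 to 0.91 at chromosome 17. It was above 0 at 11 ends and below 0 at 8. No end passed: the lowest exact permutation p was 0.171 and the lowest adjusted over 19 ends was 0.319, and at no end did the groups separate without overlap. Within the 3 same-numbered pairs, Tet2 CKO was above WT in all 3 at 9 ends and below in all 3 at 6, with an exact permutation p of 0.25 at best, the smallest possible. The median size of the difference was 0.41, and 0.11 without Tet2 CKO replicates 2 and 3, when the highest was 0.37.

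Position within the last 2 Mb was examined next. In 5 libraries the 5hmC signal fell toward the tip, and in Tet2 CKO replicates 2 and 3 it rose. The mean log2 ratio of the outer to the inner Mb was -0.42, -0.09 and -0.10 in WT and -0.14, 0.41, 0.37 and -0.13 in Tet2 CKO. Over all 7 libraries the mean was -0.02 (exact permutation p = 0.922), and without Tet2 CKO replicates 2 and 3 it was -0.18 (p = 0.0625, the smallest possible). The mean changed sign without WT replicate 1, where it was 0.05, and also without Tet2 CKO replicate 1 (0.0049) or 4 (0.0025). Genotypes differed by 0.33, with WT at -0.21 ± 0.19 (SD, n = 3) and Tet2 CKO at 0.13 ± 0.30 (SD, n = 4), which does not exceed the spread (exact permutation p = 0.286). Without Tet2 CKO replicates 2 and 3 that difference was 0.07 (exact permutation p = 1.0, smallest possible 0.1).

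Steps of 200 kb showed where these libraries parted. In the last 200 kb the mean log2 ratio to the rest of the chromosome was -0.69, -0.12 and -0.11 in WT and -0.21, 0.52, 0.50 and -0.17 in Tet2 CKO. Between 0.6 and 1.6 Mb from the end all 7 libraries were below 0. Between 1.8 and 2.0 Mb the 5 libraries were above 0, at 0.17, 0.09, 0.12, 0.10 and 0.11, while Tet2 CKO replicates 2 and 3 had fallen to -0.43 and -0.36. No step separated the genotypes without overlap, and the lowest adjusted exact permutation p over the 10 steps was 0.476. The share of bins without a read in any library was 5.56% in the last 200 kb and 2.41% at 1.8 to 2.0 Mb. The part of this difference in coverage in the profile was not tested.

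**Figure D2:**
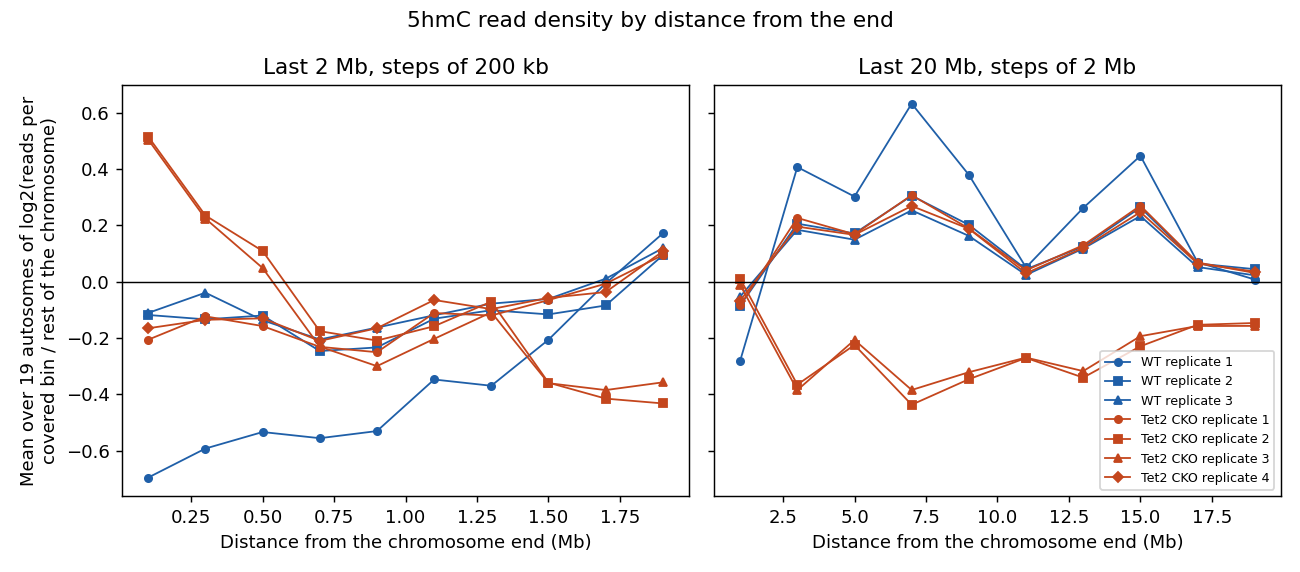
Lines give each library's mean over 19 autosomes of log2 reads per covered bin relative to the rest of the chromosome, against distance from the chromosome end in Mb, in 200 kb steps (left) and 2 Mb steps (right). In the last 200 kb Tet2 CKO replicates 2 and 3 sit at 0.52 and 0.50 and the other libraries between -0.69 and -0.11, and from 2 Mb inward the order is turned over.

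The ends were then compared with the DNA beside them. At 2 to 4 Mb the mean log2 ratio to the rest of the chromosome was 0.41, 0.21 and 0.18 in WT and 0.23, -0.37, -0.38 and 0.20 in Tet2 CKO. At 6 to 8 Mb the 5 libraries reached their maximum of the last 20 Mb, at 0.63, 0.31, 0.25, 0.31 and 0.27, and Tet2 CKO replicates 2 and 3 read -0.44 and -0.38. By 18 to 20 Mb the 5 libraries lay between 0.01 and 0.04. The log2 ratio of the last 2 Mb to the 2 Mb before it was -0.69, -0.29 and -0.24 in WT and -0.31, 0.38, 0.37 and -0.26 in Tet2 CKO. Its mean over all libraries was -0.15 (exact permutation p = 0.359), and -0.36 without Tet2 CKO replicates 2 and 3 (p = 0.0625, the smallest possible). The end was poorer than its neighbour on 12 to 16 of 19 chromosomes in the 5 libraries, and on 3 and 2 in Tet2 CKO replicates 2 and 3.

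On chromosome 18 alone the end was above its neighbour in all 7 libraries. It was richer than the neighbouring 2 Mb by 0.46, 0.48 and 0.44 in WT and by 0.49, 0.50, 0.52 and 0.36 in Tet2 CKO, so this step had the same size in the libraries that stood apart. Chromosome 16 was the reverse, poorer than its neighbour in all 7, from -0.79 in WT replicate 1 to -0.10 in Tet2 CKO replicate 2. Both chromosomes are named because of these values. The largest WT step was at chromosome 10, with a mean of -1.11, where Tet2 CKO replicates 2 and 3 read 0.46 and 0.52.

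The opposite tip of the chromosomes served as a second comparison. The last 2 Mb against the first 2 Mb of covered bins gave log2 ratios of 0.07, -0.04 and -0.02 in WT and -0.01, -0.29, -0.28 and -0.03 in Tet2 CKO. The mean of -0.09 did not pass (exact permutation p = 0.188), and without Tet2 CKO replicates 2 and 3 it was -0.0067 (exact permutation p = 0.75). Without WT replicate 1 it was -0.11 (exact permutation p = 0.0312). With the high-count bins kept, it was -0.86 (exact permutation p = 0.0156).

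Within single ends the signal was far from even. Chromosome 11 ran from a WT mean of -0.89 ± 0.39 (SD, n = 3) in its last 200 kb to 0.99 ± 0.49 at 1.8 to 2.0 Mb. Its outermost 200 kb read -1.34, -0.68 and -0.66 in WT and -0.82, -0.0024, 0.04 and -0.69 in Tet2 CKO. Chromosome 15 had the widest contrast of the 19, 2.03 between its WT extremes. The trough at 0.6 to 0.8 Mb read -1.50, -1.21 and -0.99 in WT and -1.21, -1.70, -2.12 and -0.99 in Tet2 CKO, low in every library. At chromosome 4 the WT mean was above 0 in all 10 intervals, from 0.40 at 1.4 to 1.6 Mb to 1.11 at 1.0 to 1.2 Mb. Chromosome 17 was below 0 in all 10, from -1.27 at 1.0 to 1.2 Mb to -0.40 at 0.2 to 0.4 Mb.

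Outer against inner Mb gave 4 chromosomes lower toward the tip in all 7 libraries (10, 11, 15 and 16) and 3 higher toward the tip in all 7 (13, 17 and 18). At chromosome 13 the ratio was 0.41, 0.42 and 0.34 in WT and 0.26, 0.62, 0.57 and 0.25 in Tet2 CKO. At chromosome 10 it was -1.16, -0.65 and -0.50 in WT and -0.46, -0.17, -0.20 and -0.67 in Tet2 CKO. The remaining 12 changed sign between libraries.

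**Figure D3:**
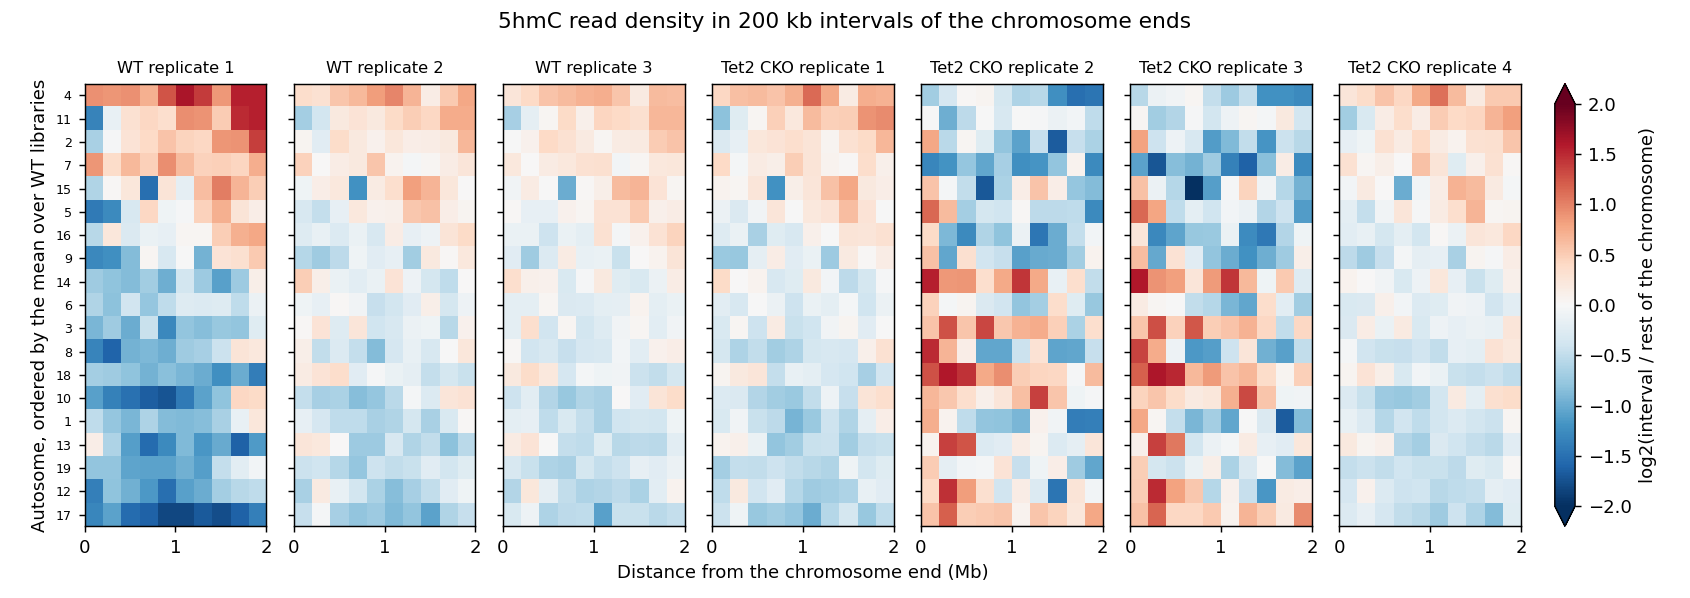
Colour gives log2 reads per covered bin in each 200 kb interval relative to the rest of the chromosome, for 19 autosomes (rows, in the order of the WT mean) against distance from the end in Mb (columns), with a panel per library. Chromosome 4 is red across WT replicate 1, chromosome 17 is blue, and both take the opposite colour over most of the panels of Tet2 CKO replicates 2 and 3, while the blue interval of chromosome 15 at 0.6 to 0.8 Mb recurs in all 7 panels.

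To test genotype for each end, reads were summed over 1301 segments of 2 Mb and fitted with edgeR's quasi-likelihood test over the whole genome. Of the 19 terminal segments, 10 had a higher and 9 a lower level in Tet2 CKO, and none was called at adjusted p under 0.05, as over all segments (0.0% called). The lowest adjusted p was 0.209. At unadjusted p under 0.05, 2 ends (10.5%) were higher and 0 (0.0%) lower in Tet2 CKO, against 1.38% higher and 0.0% lower of all segments. The median log2 fold change was 0.02 for the ends and 0.02 for all segments. DESeq2 also called 0 after adjustment (0.0% of all segments). Before it, 7 ends were higher and 4 lower (36.8% and 21.1%), against 26.9% and 8.76% of all segments. Scaled by total reads alone, the median of all segments moved to -0.42 and that of the ends to -0.41, with 4 ends above 0 and 15 below. At unadjusted p under 0.05, 0 ends (0.0%) were then higher and 3 (15.8%) lower, against 1.15% and 3.54% of all segments. No end separated the genotypes without overlap, against 3.38% of all segments higher and 2.69% lower. That count stayed at 0 without Tet2 CKO replicates 2 and 3 (4.3% and 3.23% of all), and scaled by total reads alone (0.0% of all).

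A fit with the replicate number as a block changed these calls, though the labels do not say what a shared number stands for. Tet2 CKO replicate 4 has no WT library of its number, so blocked fold changes, here and for windows, rest on the 3 same-numbered pairs. Of these pairs, 2 hold the libraries that stood apart, Tet2 CKO replicates 2 and 3. The blocked fit called 7 of 19 ends (36.8%) higher and 8 (42.1%) lower in Tet2 CKO, beside 42.4% and 40.6% of all segments. The 15 called ends are all those except chromosomes 1, 6, 8 and 19. Blocked log2 fold changes ran from -1.02 at chromosome 4 to 0.84 at chromosome 17. Without Tet2 CKO replicates 2 and 3, no end was called in the fit without the block, 0 passed at unadjusted p under 0.05 (0.0% of all segments), and log2 fold changes lay between -0.31 at chromosome 4 and 0.23 at chromosome 17. The blocked fit needs 2 or more pairs, so it could not be run without that pair of libraries, and DESeq2 was not run without it.

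Levels of a segment are given as CPM, its reads scaled by the library's effective size. The end of chromosome 17 had 354, 538 and 579 in WT and 555, 1057, 1066 and 592 in Tet2 CKO. The log2 fold change was 0.74 ± 0.31 (SE), with an adjusted p of 0.209 in edgeR. Chromosome 10 (127993501 to 129993255) had 508, 619 and 650 CPM in WT and 647, 1015, 1010 and 667 in Tet2 CKO, a log2 fold change of 0.50 ± 0.21. Chromosome 3 (157600001 to 159599783) had 412, 659 and 663 CPM against 637, 1254, 1242 and 680, or 0.72 ± 0.31. In each, Tet2 CKO replicates 1 and 4 lay close to WT replicates 2 and 3, WT replicate 1 was lowest and Tet2 CKO replicates 2 and 3 were highest. Without Tet2 CKO replicates 2 and 3 the log2 fold changes were 0.23, 0.15 and 0.19. Scaled by total reads alone, chromosome 10 came to -0.0079, still above the median of all segments under that scaling.

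On the lower side, chromosome 4 had 2364, 1321 and 1244 CPM in WT and 1376, 569, 590 and 1272 in Tet2 CKO, a log2 fold change of -0.79 ± 0.45 (SE). Chromosome 7 (150525001 to 152524553) had 1460, 943 and 925 CPM in WT and 953, 450, 434 and 927 in Tet2 CKO, or -0.68 ± 0.35. Chromosome 11 (119844001 to 121843500) gave -0.63 ± 0.36. Chromosome 2 (179748501 to 181748087) gave -0.52 ± 0.26, and chromosome 16 (96319501 to 98319150) gave -0.35 ± 0.18. All had an adjusted p of 0.209 in edgeR. In all 5, WT replicate 1 was highest and Tet2 CKO replicates 2 and 3 were lowest, with the other 4 libraries between them. Without Tet2 CKO replicates 2 and 3 the log2 fold changes were -0.31 at chromosome 4, -0.24 at 7, -0.22 at 11, -0.20 at 2 and -0.11 at 16. Without WT replicate 1 they were -0.43 at chromosome 4, -0.44 at 7, -0.32 at 11 and -0.32 at 2. Chromosome 12 (119258001 to 121257530) was at 0.46 ± 0.22, 0.14 without Tet2 CKO replicates 2 and 3, and -0.03 when scaled by total reads alone.

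Chromosome 19 (59342501 to 61342430), the only one of the 3 lowest ends with a fold change near 0, had 638, 632 and 651 CPM in WT and 638, 631, 572 and 660 in Tet2 CKO, a log2 fold change of -0.03 ± 0.11 (SE) with an adjusted p of 0.783 in edgeR. The highest library was 1.15-fold the lowest here, and 4.15-fold at chromosome 4.

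**Figure D4:**
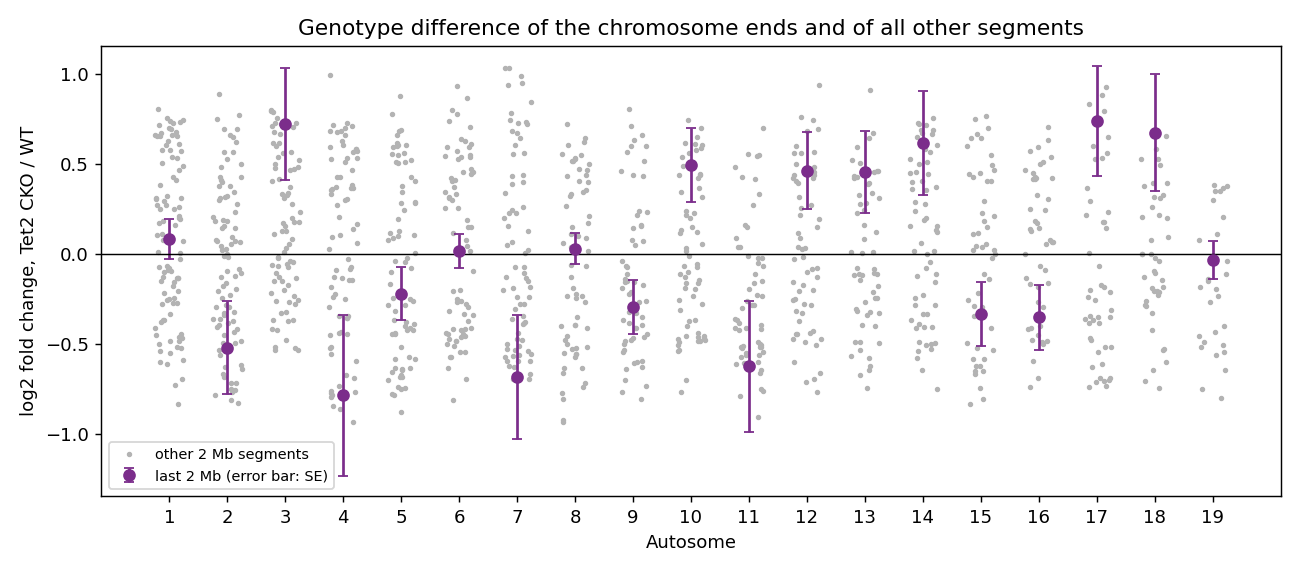
The y axis is the edgeR log2 fold change of Tet2 CKO over WT per 2 Mb segment, with each autosome's last segment as a large point with its SE and all its other segments as small grey points. The 19 ends lie between -0.79 at chromosome 4 and 0.74 at chromosome 17, inside the range of the other segments, and none has an adjusted p under 0.05.

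At a finer scale, 3789 windows of 10 kb inside the ends had a mean count of at least 10, of 253968 tested in the genome. None was called by edgeR at adjusted p under 0.05 in the ends or in the genome (0.0% called). At unadjusted p under 0.05, 377 end windows (9.95%) were higher and 170 (4.49%) lower in Tet2 CKO, close to the 9.62% and 3.92% of all windows. DESeq2 gave an adjusted p to 858 of the end windows and called 0 (0.0% of all windows with one). Before adjustment 586 (15.5%) were higher and 288 (7.60%) lower, against 15.1% and 7.12% of all windows. Groups did not overlap at 182 end windows higher in Tet2 CKO (4.80%, against 4.81% of all) and at 209 lower (5.52%, against 5.03%). Scaled by total reads alone, those counts became 69 (1.82%, against 1.88% of all) and 305 (8.05%, against 7.89%). The counts at unadjusted p became 10 higher (0.264%, against 0.308%) and 183 lower (4.83%, against 4.92%). Under that scaling the median of all windows moved to -0.52 and that of the ends to -0.54. With the replicate block, 512 end windows (13.5%) were called higher and 403 (10.6%) lower, beside 12.7% and 9.9% of all windows. Without Tet2 CKO replicates 2 and 3 the counts at unadjusted p were 60 (1.58%, against 1.68% of all) and 78 (2.06%, against 1.74%). The windows without overlap were then 338 higher (8.92%, against 9.14%) and 347 lower (9.16%, against 8.76%), an alternative added after seeing the data.

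At the ends with the largest fold changes, those windows followed the end they lay in. Of 198 windows at the end of chromosome 17, 54 (27.3%) were higher and 0 (0.0%) lower at unadjusted p under 0.05. Of all windows in the genome, 9.62% were higher and 3.92% lower. Chromosome 3 had 48 and 0 of 200 (24.0% and 0.0%), and chromosome 10 had 46 and 2 of 199 (23.1% and 1.01%). Chromosome 18 had 43 and 1 of 199 (21.6% and 0.50%), and chromosome 14 had 40 and 0 of 200 (20.0% and 0.0%). The reverse held at chromosome 7, with 1 higher and 33 lower of 200 (0.5% and 16.5%). It also held at chromosome 4, with 0 and 29 of 199 (0.0% and 14.6%). Some other ends did not show this. Chromosome 5 had 18 higher and 11 lower of 200 (9.0% and 5.5%), with a segment log2 fold change of -0.22. Chromosome 9 had 7 and 4 of 195 (3.59% and 2.05%), with a segment value of -0.30. The median log2 fold change of their windows was below 0 at both, at -0.31 and -0.28. Neighbouring windows share a chromosome and its level, so they are not separate pieces of evidence.

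Some single windows differed by more than the segments around them. By smallest p, the first was at chromosome 3, 158620001 to 158630000, with 0.29, 0.44 and 0.67 CPM in WT and 1.14, 4.84, 5.16 and 1.77 in Tet2 CKO. These rest on 8, 6 and 11 reads in WT and 16, 50, 56 and 28 in Tet2 CKO. The log2 fold change was 2.79 ± 0.64 (SE), and 1.66 without Tet2 CKO replicates 2 and 3. A second window on chromosome 3, 158850001 to 158860000, had 0.91, 1.68 and 1.58 CPM against 1.99, 10.5, 11.7 and 4.36. On chromosome 17, 94570001 to 94580000 had 1.20, 0.88 and 0.12 CPM against 2.56, 4.93, 5.44 and 2.78. Their log2 fold changes were both 2.37 ± 0.60, and 1.22 and 1.82 without Tet2 CKO replicates 2 and 3. In all 3 every Tet2 CKO library lay above every WT library, yet the edgeR adjusted p was 0.368 for each, and 0.0059 to 0.0071 with the replicate block. Windows were picked here by their p, so the choice favoured separation of the groups, which is no separate evidence.

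Lower in Tet2 CKO was a window of chromosome 4, 153800001 to 153810000, with 15.7, 7.73 and 6.25 CPM in WT and 3.27, 1.45, 1.29 and 4.17 in Tet2 CKO. Its log2 fold change was -1.95 ± 0.53 (SE), and -1.42 without Tet2 CKO replicates 2 and 3. Chromosome 8, 129880001 to 129890000, had 6.74, 6.19 and 6.37 CPM in WT and 2.56, 1.74, 0.738 and 2.91 in Tet2 CKO, or -1.68 ± 0.47. Chromosome 1, 195230001 to 195240000, had 7.25, 5.10 and 4.61 CPM against 2.34, 1.45, 1.20 and 2.46, or -1.59 ± 0.44, and -1.24 without that pair of libraries. In the chromosome 8 window the WT SD was 0.28 CPM, and its fold change was -1.23 without Tet2 CKO replicates 2 and 3. Each had an edgeR adjusted p of 0.368, and 0.0059 to 0.0080 with the replicate block.

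The 5 windows of highest mean CPM were chosen over all 7 libraries, so a library with very high values there could bring them in. All 5 were highest in the 2 libraries that stood apart. At chromosome 14, 125180001 to 125190000, the CPM was 6.27, 16.8 and 10.8 in WT and 11.9, 59.1, 54.0 and 9.22 in Tet2 CKO. Chromosome 18, 88790001 to 88800000, had 4.93, 10.4 and 10.1 CPM against 7.67, 45.5, 37.6 and 8.59. Chromosome 8, 130390001 to 130400000, had 5.47, 10.1 and 9.83 CPM against 8.02, 41.3, 40.4 and 8.34. Log2 fold changes for these 3 were 1.57 ± 0.89, 1.55 ± 0.81 and 1.53 ± 0.80 (SE), and -0.09, -0.05 and -0.05 without Tet2 CKO replicates 2 and 3. The other two, on chromosome 18 (90600001 to 90610000) and chromosome 13 (119980001 to 119990000), went from 1.52 ± 0.75 to 0.35 and from 1.55 ± 0.76 to 0.17. Their edgeR adjusted p was 0.368 to 0.389, and 0.0166 to 0.0250 with the replicate block.

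Each library's windows were also ranked by reads per covered bin over all 239374 autosomal windows with at least 10 covered bins. If ends were like the rest, about 10% of their 3787 windows would fall in the richest 10% and about 10% in the poorest. Observed shares in the richest 10% were 8.85%, 9.48% and 9.88% in WT and 9.80%, 11.8%, 11.5% and 8.90% in Tet2 CKO. In the poorest 10% they were 10.5%, 10.9% and 10.1% in WT and 11.2%, 10.5%, 12.1% and 10.8% in Tet2 CKO. Over all ends these shares stayed between 8.85% and 12.1% in every library.

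Single ends again departed from this. At chromosome 4, 57.3%, 37.2% and 35.7% of windows were in the richest 10% of the WT libraries, and 39.2%, 1.51%, 2.01% and 31.7% in Tet2 CKO. Chromosome 11 had 23.6% to 33.2% in 5 libraries, and 2.0% and 2.5% in Tet2 CKO replicates 2 and 3. Chromosome 18 had 0.0%, 9.5% and 10.1% in WT and 6.5%, 29.1%, 29.1% and 5.5% in Tet2 CKO. At chromosome 10, 32.7%, 23.6% and 22.6% of windows were in the poorest 10% of the WT libraries, and 19.1%, 5.5%, 8.5% and 22.6% in Tet2 CKO.

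**Figure D5:**
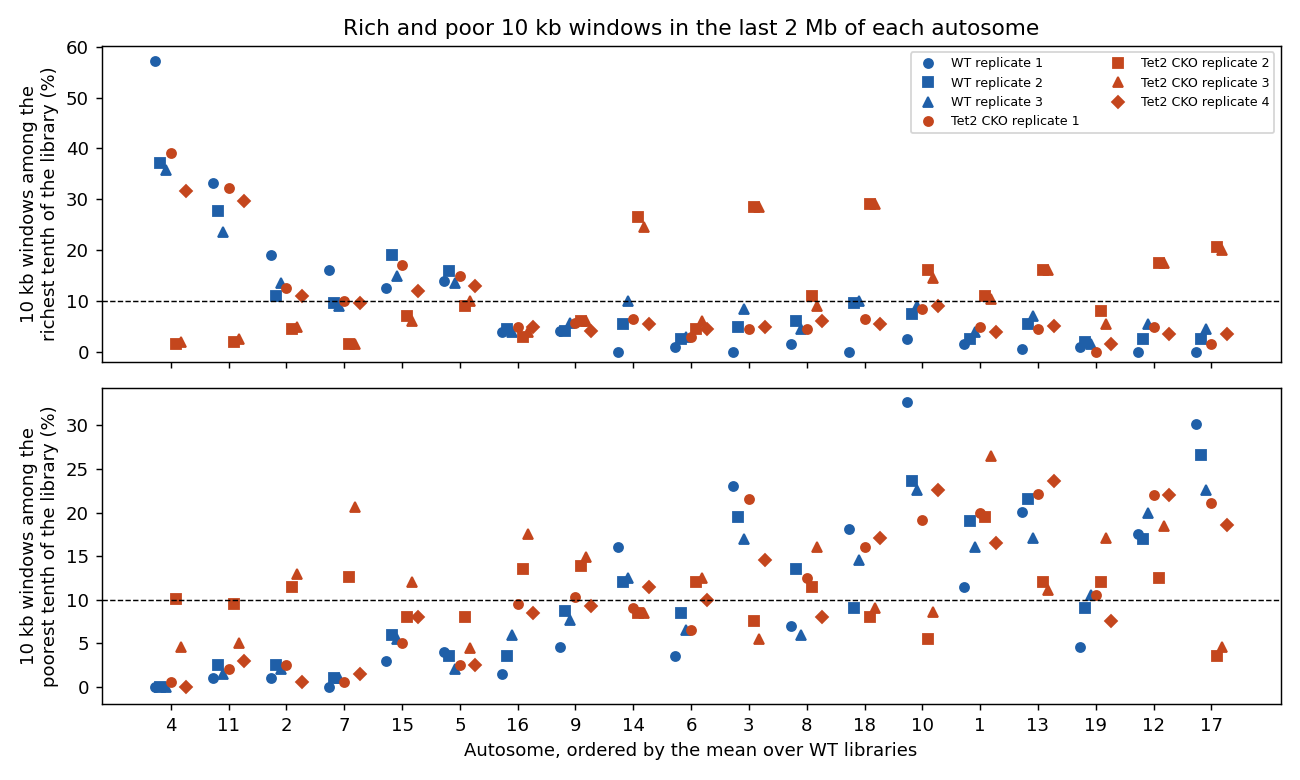
The share of each end's 10 kb windows that fall in the richest 10% (top) and poorest 10% (bottom) of a library's autosomal windows is plotted in percent, with a point per library and a dashed line at 10%. Chromosome 4 reaches 57.3% in the top panel in WT replicate 1 and 1.51% in Tet2 CKO replicate 2, and chromosomes 3, 14, 17 and 18 show the opposite order.

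The very tip of the chromosomes varied widely. In the last 5 kb outside high-count bins, the 7 libraries together had from 35 reads at chromosome 3 to 1032 at chromosome 14. Chromosome 14 had 84, 166 and 83 of these reads in WT and 89, 242, 286 and 82 in Tet2 CKO. The last covered bin started 30 to 1149 bp before the assembled end, so on some autosomes, such as 16, the final bins held no read.

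Genes near these ends can be given by order alone. RefSeq's gene order comes from a later mouse assembly than mm9, so no position was taken from it and no value is attached. Its last protein-coding genes on chromosome 4 are Noc2l, Samd11 and the vomeronasal receptor gene Vmn2r129. On chromosome 17 they are Adcyap1, which encodes the neuropeptide PACAP, Mettl4 and Gm20939. On chromosome 14 the order closes with Nalcn, a sodium leak channel gene, Itgbl1 and Fgf14. Chromosome 10 closes with a run of vomeronasal receptor genes, Vmn2r85, Vmn2r86 and Vmn2r87.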

How the data were processed

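The authors deposited 1 table of raw read counts per 500 bp bin of mm9, with a column per library. Bowtie2, HOMER and DESeq2 are named in the submitters' processing notes, and their versions, roles and any removal of duplicates are not given in the sources used here. No input library was used here. The members and lists were chosen with earlier results of these data known.

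High-count bins (mean above 100) were left out. Reads per covered bin were compared within each chromosome and library, and tested over libraries with exact permutations. These were coded directly, and the permutation of group labels was checked against scipy 1.17.1. Segments of 2 Mb, counted back from the end, and 10 kb windows with a mean count of at least 10 were fitted on chromosomes 1 to 19, X and Y with edgeR 4.0.16 (quasi-likelihood, TMM, Benjamini-Hochberg) in R 4.3.3. Fits were tested on simulated counts in which no library stood apart, so that test does not show how they behave with such libraries. DESeq2 1.42.0, other scalings, other filters and left-out libraries were alternatives. Named regions were the 3 ends highest and the 3 lowest by WT mean, the 3 terminal segments and 3 windows of smallest p in each direction, and the 5 windows of highest mean CPM. Other ends and intervals were named from their values.

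Replicate numbers come from the labels. The numbers were treated as pairs in the blocked fits and the paired comparisons. Over 226943 windows, deviations of same-numbered WT and Tet2 CKO libraries from their group means (log2 of CPM + 0.5) correlated at 0.55, 0.30 and 0.34. Some other pairs correlated nearly as much or more, at 0.51 for WT replicate 1 with Tet2 CKO replicate 4 and 0.36 for WT replicate 3 with Tet2 CKO replicate 2. These correlations therefore cannot show that a shared number marks a pair, and the labels do not say what it stands for. No mm9 genome or annotation was used here, so base composition, gene content and repeats of the ends were not analysed and no sequence is printed.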

Additional observations from a re-analysis of the deposited data

Results flagged for a closer look

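In 64 groups of 4 Tet2 CKO values examined, 1 library lay far from the others: Tet2 CKO replicate 3 at the end of chromosome 6, with a log2(end / rest) of -0.27 against -0.19, -0.18 and -0.18. Chance alone marks about 1 in 20 such groups.

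The 6 high-count bins left out of the ends carried reads that no comparison of the ends used. On chromosome 2, the bin starting at 181747501, which is 586 bp from the end, held 26276 reads over the 7 libraries: 1498, 3091 and 3245 in WT and 2514, 5921, 7589 and 2418 in Tet2 CKO. The bin before it, starting at 181747001, held 1940, and another at 181665001 held 719. On chromosome 18, the bin starting at 90771501, 530 bp from the end, held 39756: 2202, 4508 and 5906 in WT and 4580, 8738, 10464 and 3358 in Tet2 CKO. The last bin of that chromosome, starting at 90772001, held 5207. On chromosome 11 the last bin, starting at 121843501, held 3884. In all 5 bins within 1086 bp of an end, Tet2 CKO replicates 2 and 3 had the most reads and WT replicate 1 the fewest. These are raw counts, not scaled for depth. Total reads were 39224160 and 49414761 in Tet2 CKO replicates 2 and 3, 41988546 in WT replicate 1 and 26134505 to 29604828 in the other libraries. No mm9 sequence was used here, so what these bins contain was not analysed.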

How the results depend on the processing

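The mean end to rest ratio kept its sign but not its call with all bins as denominator (-0.039) and with reads pooled over autosomes (-0.0047). The same held as a median over 10 kb windows (-0.034) and for the last 1 Mb (-0.11), and it turned to 0.050 for the last 5 Mb. Without Tet2 CKO replicates 2 and 3 this ratio was -0.11, where too few libraries remain for its sign permutation to pass 0.05. Its genotype difference turned to -0.0076 with high-count bins kept and to -0.17 for the last 5 Mb. With high-count bins kept, outer against inner Mb turned to 0.079, and the ends against the centromere side passed at -0.86. Leaving out 1 library at a time gave -0.097 to -0.048 for the ends, 0.031 to 0.14 for their genotype difference, -0.086 to 0.052 for outer (above 0 without WT replicate 1 or Tet2 CKO replicate 1 or 4) against inner Mb, 0.22 to 0.42 for its genotype difference, -0.24 to -0.06 against the next 2 Mb and -0.11 to -0.052 against the centromere side. It gave 0 called ends or end windows, with 0 to 12 ends (12 without Tet2 CKO replicate 1, 7 without replicate 4, 0 without each of the others) and 109 to 973 end windows (109 without WT replicate 1, 973 without Tet2 CKO replicate 1) at unadjusted p under 0.05. All segments moved too, with 349 higher and 115 lower of 1301 without Tet2 CKO replicate 1, and 281 and 32 without replicate 4. All windows gave 5317 higher and 1983 lower of 253428 without WT replicate 1. Without Tet2 CKO replicate 1 they gave 39421 and 21770 of 253966. The replicate block called 15 ends and 915 end windows, with 15 and 1449 at unadjusted p. Beside these, it called 42.4% of all segments higher and 40.6% lower, and 12.7% and 9.9% of all windows. At unadjusted p, 555 segments were higher and 538 lower of 1301, and 48481 and 44600 windows of 253968. With the same-numbered pairs, the genotype difference was 0.11 for the ends and 0.42 for outer against inner Mb. The exact permutation over 3 pairs allows no p under 0.25, so these tests over libraries could make no call. Ends at unadjusted p were 11 with DESeq2 and 0 without Tet2 CKO replicates 2 and 3, and end windows were 874 and 138, and 193 when scaled by total reads alone. Of all segments, 26.9% were higher and 8.76% lower with DESeq2, and 0.0% without that pair of libraries. Of all windows, 15.1% were higher and 7.12% lower with DESeq2, and 1.68% and 1.74% without that pair. Scaled by total reads, 0.308% and 4.92% of all windows were. The cause of these shifts was not tested. Of 294 alternative values for the 21 named segments and windows, 267 kept sign and side, 20 passed (all under the block) and 7 turned sign: chromosome 10 (-0.0079) and chromosome 12 (-0.028) scaled by total reads, chromosome 19 without Tet2 CKO replicates 2 and 3 (0.020) or replicate 3 (0.0062, the top of a range from -0.061), and 3 windows without Tet2 CKO replicates 2 and 3, on chromosomes 14 (-0.095), 18 (-0.053) and 8 (-0.045). Named windows rest on 2 to 611 reads a library.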
